A study of Mus musculus with 6 samples.

Results

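HC11 and C57MG are established mouse mammary cell lines, and their transcriptomes were compared through 4 of the 6 libraries of the series, 2 from each line. The members were the 10491 genes, of 11417 in the deposited table, that reached at least 1 RPKM (reads per gene, scaled by gene length and library size) in 2 or more of these 4 libraries. The other 926 genes did not do so and were not tested. The cells of both lines were untreated, grew on plastic in 10 cm dishes and were collected at day 2 after plating, and poly(A) libraries were made from 1 µg of RNA. The medium of HC11 was RPMI1640 with 10% serum, insulin at 5 µg/ml and epidermal growth factor (EGF) at 10 ng/ml. The medium of C57MG was DMEM with the same share of serum, insulin at 10 µg/ml and no EGF named in the labels. HC11 is known as a clonal line of BALB/c origin, and C57MG as a line of C57BL/6 origin, which the labels do not state. Line, origin, basal medium, EGF and insulin dose differ together and cannot be told apart. The labels call both lines mammary epithelial. Nothing in them says that the libraries of a line came from separate cultures, so the p-values measure the spread between libraries only. The 2 libraries of the third line, BC44, also entered the estimate of that spread. The medium of BC44 had 10% serum, insulin at 5 µg/ml and no EGF named in the labels.

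Epithelial cells are bound to each other by cadherin, desmosomal and tight junctions, carry keratin filaments, and rest on a basement membrane through integrins. Mesenchymal cells are loosely attached, carry vimentin filaments, and deposit fibrillar collagen. In the mammary gland, keratin 5 and keratin 14 mark the basal layer and keratin 8 and keratin 18 the luminal layer, and transcription factors of the GRHL and OVOL families oppose those of the ZEB, SNAI and TWIST families. EGF binds a receptor tyrosine kinase whose signal passes through RAS and ERK to immediate early genes and to phosphatases that switch the kinase off again, and HC11 cells are routinely kept in EGF to remain competent for lactogenic hormones.

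Depth, estimated from the steps between low values, lay between 14310000 and 18460000 reads per library. Pearson's r of log2(RPKM + 1) over the tested genes, which share their library and depth, was 0.9895 within HC11, 0.9953 within C57MG and 0.709 to 0.7357 between lines. The 11 tested epithelial markers summed to 3110 and 2227 RPKM in HC11 and to 137.6 and 65.52 RPKM in C57MG, where Krt14 made up most of the sum and 3 markers had no more than 3 estimated reads in either library. The 11 tested fibroblast or mesenchymal markers summed to 261.2 and 336.7 RPKM in HC11 and to 7369 and 7136 RPKM in C57MG. In C57MG, S100a4 and Vim made up most of that sum. Of the 11 markers 9 were higher in C57MG and 1, Dcn, in HC11, and Prrx1 was not called. Most of these markers thus went against the epithelial label of C57MG. Of 5 tested basal mammary markers 4 were higher in HC11 and 1, Acta2, in C57MG, and C57MG also had Krt14 and Trp63 transcripts. Of 9 immune markers 1 was analysed here, Cd68, with 2.57 to 3.302 RPKM in the 4 libraries. Trace levels differed between the C57MG libraries. Genes were taken with at least 50 RPKM in each HC11 and BC44 library and at most 2% of that in the other C57MG library. In C57MG replicate 1 the median of 31 such genes was 1.06% of that level. In C57MG replicate 2 the median of 28 such genes was 0.0118%, and 11 of them were listed at 0. The lower end of many folds below rests on these traces, and their source was not tested.

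A gene was called when its limma adjusted p-value was under 0.05 and its difference was at least 1 on the log2(RPKM + 1) scale, that is, 2-fold. By the p-value alone 7465 genes (71.2%) passed, 3903 higher in HC11 (37.2%) and 3562 higher in C57MG (34%). With the size threshold 2894 genes (27.6%) were called, 1509 higher in HC11 (14.4%) and 1385 higher in C57MG (13.2%). Counts of called list members below are to be set beside these shares. The libraries of the lines did not overlap for 9070 tested genes (86.5%), nor for any of the 2894 called genes. The median difference over all tested genes was 0.02, with quartiles at -0.51 and 0.57, and the median size of a called difference was 1.65. A difference of 3 or more was measured for 307 genes toward HC11 and 232 toward C57MG. Of the genes called higher in HC11, 264 did not exceed a floor of 3 estimated reads in either C57MG library, and 151 of those called higher in C57MG did not exceed it in HC11. A gene near 0 in a line passed the filter only through the other line, so it could be called in that direction only. The filter thus partly sets the shares and medians of lists that hold such genes. Differences are given below as HC11 minus C57MG on that log2 scale with the standard error (SE), and folds as the ratio of mean RPKM. Where a line did not exceed the floor, the fold is a lower bound. Values of a line stand in the order of replicates 1 and 2.

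**Figure D1:**
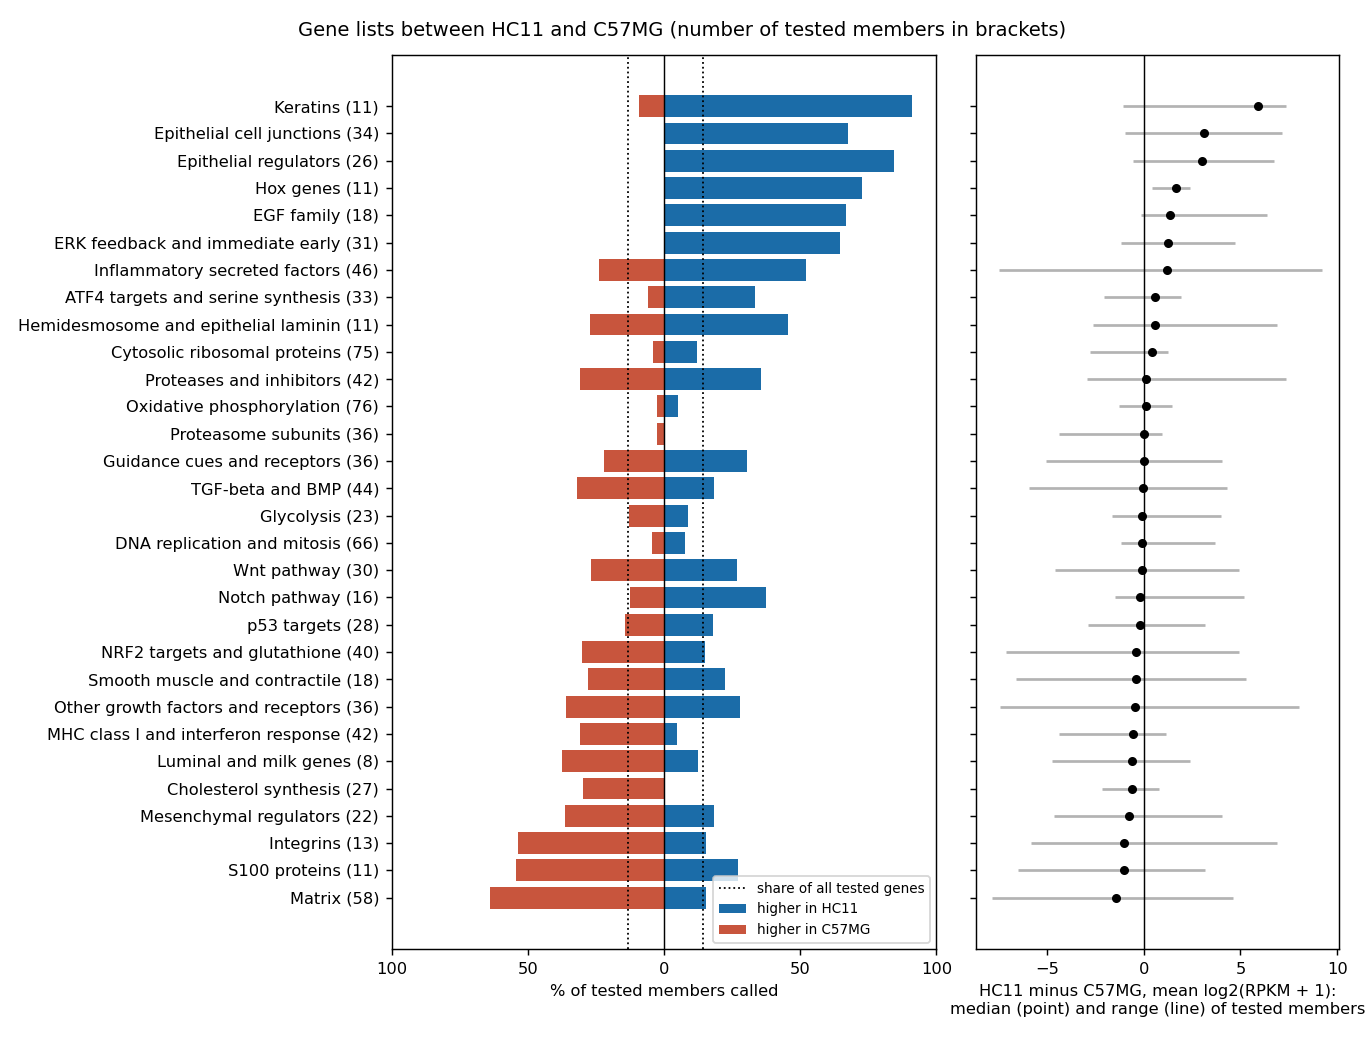
Left, the share of each list's tested members called higher in HC11 (blue, to the right) or higher in C57MG (red, to the left), in percent, with dotted lines at the 14.4% and 13.2% of all tested genes. Right, the median (point) and the range (line) of the members' differences in mean log2(RPKM + 1); keratins, junctions and epithelial regulators have the highest medians, at 5.89, 3.12 and 3.00, and matrix genes the lowest, at -1.43.

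Keratin genes had the highest median difference of the lists. Of 17 listed keratins 13 were in the deposited table and 11 were tested. Of the 11 tested keratins 10 were higher in HC11 and 1 in C57MG, with a median of 5.89 against 0.02 for all tested genes. Keratins absent from C57MG passed the filter only through HC11. The keratins of simple epithelium were close to absent from C57MG. Krt8 was at 144 and 148 RPKM in HC11 against 0.307 and 0.503 RPKM in C57MG, a difference of 6.71 (SE 0.11, limma adjusted p = 5.87e-08). Krt18, its partner in filaments, was at 88.5 and 94.1 RPKM in HC11 against 0 and 0.046 RPKM in C57MG, at least 726-fold apart. Krt7 was at 49.1 and 68.9 RPKM in HC11 and listed at 0 in both C57MG libraries, at least 2302-fold apart. The basal pair was less uniform, since C57MG retained one member. Krt14 was at 1409 and 1073 RPKM in HC11 against 118 and 64.8 RPKM in C57MG and differed by 3.80 (SE 0.26). Krt5, its partner, was at 1000 and 534 RPKM in HC11 against 16.04 and 0.148 RPKM in C57MG. The C57MG libraries thus lay far apart for Krt5, and its SE of 1.05 was the widest among the keratins. Krt17, a keratin of basal and stressed epithelium, was at 1261 and 1281 RPKM in HC11 against 24.7 and 11.4 RPKM in C57MG. Krt16, of stressed epithelium, was the closest between lines, at 53.6 and 71.8 RPKM in HC11 against 42.2 and 21.4 RPKM in C57MG (1.02, limma adjusted p = 0.0134). It was not called, which left 9 keratins, without C57MG replicate 2 (0.54), without HC11 replicate 2 (0.81) or with quantile normalization (0.99). Krt13 alone was higher in C57MG, at a low level, with 0.059 and 0 RPKM in HC11 against 1.12 and 1.28 RPKM in C57MG. Keratins have related sequences, and how reads shared between them were assigned is not given in the sources used here.

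Cell junction genes split into a group that C57MG nearly lacked and a group that both lines shared. Of 65 listed members 36 were in the deposited table and 34 were tested. Of the 34 tested members 23 were higher in HC11 and none in C57MG, with a median of 3.12. Members near 0 in C57MG passed the filter only through HC11, which partly sets this share and median. Desmosome genes gave 9 of 12, tight junction genes 10 of 12, adherens junction genes 3 of 6 and gap junction genes 1 of 4. Epcam, an epithelial adhesion molecule, was at 242 and 163 RPKM in HC11 against 0.949 and 0 RPKM in C57MG (7.16, SE 0.32, limma adjusted p = 9.5e-07). Cdh1, which encodes E-cadherin, was at 107 and 110 RPKM in HC11 against 1.09 and 0 RPKM in C57MG. In both genes the trace in C57MG came from replicate 1. Cldn3, a tight junction claudin, was at 80.4 and 68.8 RPKM in HC11 and listed at 0 in both C57MG libraries, at least 520.2-fold apart. Lsr, a component of tricellular tight junctions, was at 68.5 and 67.02 RPKM in HC11 against 0.485 and 0 RPKM in C57MG. F11r, the junctional adhesion molecule JAM-A, was at 56.5 and 61.7 RPKM in HC11 against 0.54 and 0 RPKM in C57MG. Tight junction strands and their corners thus went together. The desmosomal plaque genes Jup, Pkp1 and Dsp differed by 6.00, 5.91 and 5.38, with SE of 0.36, 0.24 and 0.31.

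The catenins and general scaffold genes were present in both lines. Ctnnb1, beta-catenin, was at 181 and 159 RPKM in HC11 against 182 and 187 RPKM in C57MG (-0.12, limma adjusted p = 0.258). Ctnna1, alpha-catenin, was at 98.98 and 98.01 RPKM in HC11 against 110 and 107 RPKM in C57MG. Tjp1, the tight junction scaffold ZO-1, was at 30.9 and 35.1 RPKM in HC11 against 28.8 and 31.5 RPKM in C57MG. None of these was called. The desmosomal gene Perp was not called, at 218 and 207 RPKM in HC11 against 167 and 149.9 RPKM in C57MG. Gja1, the connexin of many cell types, was not called either, at 55.7 and 65.3 RPKM in HC11 against 74.3 and 61.8 RPKM in C57MG.

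Genes that regulate the epithelial state followed the junctions. Of 28 listed members 26 were tested, 22 of them higher in HC11 and none in C57MG, with a median of 3.00. Here too, members near 0 in C57MG passed the filter only through HC11. All 4 members of the membrane protease system were called. Spint2, an inhibitor of the membrane protease matriptase, was at 147 and 139 RPKM in HC11 against 0.796 and 0.044 RPKM in C57MG (6.71, SE 0.23, limma adjusted p = 3.46e-07). St14, matriptase itself, was at 39.5 and 35.4 RPKM in HC11 against 0.314 and 0 RPKM in C57MG. All 3 tested splicing factors of epithelium were called. Esrp1 was at 41.9 and 35.02 RPKM in HC11 against 0.439 and 0 RPKM in C57MG. Esrp2 was at 15.6 and 11.98 RPKM in HC11 against 0.255 and 0 RPKM in C57MG. Rbm47 remained measurable in C57MG, with 3.91 and 3.96 RPKM in HC11 against 1.02 and 1.14 RPKM in C57MG. Of 16 tested transcription factors 12 were higher in HC11. Klf5, a factor of proliferating epithelium, was at 17.4 and 23.97 RPKM in HC11 against 0.096 and 0 RPKM in C57MG. Grhl2, an activator of junction genes, was at 17.3 and 14.3 RPKM in HC11 against 0.191 and 0.035 RPKM in C57MG. All of the regulators named here but Rbm47 had under 1 RPKM in both C57MG libraries.

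A smaller set of epithelial factors was shared. Trp63, the basal epithelial regulator p63, was at 20.5 and 17.8 RPKM in HC11 against 5.86 and 6.98 RPKM in C57MG, 2.98-fold apart. Klf4, a factor of differentiating epithelium, was not called, at 32.1 and 34.8 RPKM in HC11 against 53.6 and 46.01 RPKM in C57MG. Gata3, a luminal factor, was not called, at 5.36 and 6.37 RPKM in HC11 against 7.32 and 8.43 RPKM in C57MG. Tfap2a, an ectodermal factor, was at 11.4 and 10.8 RPKM in HC11 against 9.52 and 11.7 RPKM in C57MG, and its libraries overlapped between the lines. C57MG thus retained Krt14, Trp63, Klf4, Gata3 and Perp transcripts while Epcam, Cdh1 and Cldn3 were near 0.

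Mesenchymal regulators were divided between the lines. Of 22 tested members 8 were higher in C57MG and 4 in HC11, with a median of -0.77. Of the 6 factors known to repress epithelial genes 4 were higher in C57MG. Zeb1 was at 0.266 and 0.414 RPKM in HC11 against 10.6 and 11.3 RPKM in C57MG (-3.16, SE 0.12, limma adjusted p = 5.91e-07). Zeb2 was at 0.942 and 1.45 RPKM in HC11 against 4.13 and 3.79 RPKM in C57MG. Twist1 was at 5.17 and 5.36 RPKM in HC11 against 29.7 and 28.7 RPKM in C57MG, and its relative went the same way with a larger fold. Twist2 was at 0.567 and 0.578 RPKM in HC11 against 22.7 and 25.04 RPKM in C57MG. Snai1 and Snai2 did not reach the size threshold and stood on opposite sides. Snai1 was at 22.3 and 25.6 RPKM in HC11 against 46.6 and 44.8 RPKM in C57MG (-0.91, but -1.002 and called without HC11 replicate 2). Snai2 was at 10.8 and 10.03 RPKM in HC11 against 7.85 and 6.58 RPKM in C57MG (0.48). Paired homeobox factors of mesenchyme also differed between relatives. Prrx2 was at 0.082 and 0.071 RPKM in HC11 against 24.3 and 27.99 RPKM in C57MG, at least 275-fold apart. Prrx1 was at 2.101 and 2.11 RPKM in HC11 against 1.605 and 1.79 RPKM in C57MG and not called. Cdh2, which encodes N-cadherin, was at 0.334 and 0.311 RPKM in HC11 against 8.27 and 8.27 RPKM in C57MG. Toward HC11 stood Sox4, a factor also active in epithelium, at 46.6 and 49.3 RPKM in HC11 against 2.19 and 1.83 RPKM in C57MG, and Osr1 at 11.97 and 8.33 RPKM in HC11 against 0.193 and 0 RPKM in C57MG.

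Because the ZEB and SNAI factors bind the E-box CAGGTG, the 250 bases before each gene start were searched for these letters on either strand. The RefSeq promoter table (GRCm38.p6) covered 8384 tested genes, and CAGGTG occurred in 17.2% of its 32851 promoters of that length. Counted by gene over all its listed starts, it occurred in 25.7% of 1138 genes called higher in HC11, in 16.6% of 1050 called higher in C57MG and in 15.7% of 6196 not called. The promoter table covered 12 of 23 junction genes called higher in HC11, 9 of 22 epithelial regulators and 5 of 10 keratins. The letters stood in 7, 5 and 4 of those covered, and the other called members were not searched. These lists had the highest shares. Other covered genes called higher in HC11 gave 5 of 17 inflammatory genes, 1 of 13 proteases and inhibitors and 0 of 6 matrix genes. Covered integrins called higher in C57MG gave 2 of 5. A match is a run of letters and not a measured binding site, and base composition was not compared between the groups. The following 5 sequences, read in the direction of transcription up to the base before the gene start, show how the E-box letters (capitals, CAGGTG or its reverse complement CACCTG) lie in genes that C57MG hardly expressed. Epcam holds 2 matches in chr17:87635729-87635978 (plus strand), Lsr 4 in chr7:30973470-30973719 (minus strand) and Spint2 3 in chr7:29281978-29282227 (minus strand). Ap1m2, an adaptor subunit for basolateral sorting, holds 4 in chr9:21312334-21312583 (minus strand), and Krt8 holds 1 in chr15:102004343-102004592 (minus strand).
Epcam: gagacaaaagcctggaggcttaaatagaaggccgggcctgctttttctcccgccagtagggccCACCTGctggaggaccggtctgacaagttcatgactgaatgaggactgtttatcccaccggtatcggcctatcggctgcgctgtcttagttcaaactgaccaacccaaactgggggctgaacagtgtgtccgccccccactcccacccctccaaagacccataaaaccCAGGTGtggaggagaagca
Lsr: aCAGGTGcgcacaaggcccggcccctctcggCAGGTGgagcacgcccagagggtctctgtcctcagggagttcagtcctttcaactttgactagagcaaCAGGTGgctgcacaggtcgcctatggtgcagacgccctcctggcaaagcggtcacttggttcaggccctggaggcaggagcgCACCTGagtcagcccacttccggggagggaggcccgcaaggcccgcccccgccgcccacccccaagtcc
Spint2: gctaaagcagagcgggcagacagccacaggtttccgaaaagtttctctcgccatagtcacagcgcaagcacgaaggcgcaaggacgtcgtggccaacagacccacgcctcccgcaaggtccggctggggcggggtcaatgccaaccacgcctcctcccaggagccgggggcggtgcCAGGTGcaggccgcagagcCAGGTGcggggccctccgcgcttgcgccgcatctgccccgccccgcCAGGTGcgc
Ap1m2: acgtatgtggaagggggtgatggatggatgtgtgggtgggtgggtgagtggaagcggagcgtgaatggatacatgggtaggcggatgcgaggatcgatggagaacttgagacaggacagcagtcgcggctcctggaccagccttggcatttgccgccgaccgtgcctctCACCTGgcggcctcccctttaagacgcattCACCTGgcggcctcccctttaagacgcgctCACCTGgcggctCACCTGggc
Krt8: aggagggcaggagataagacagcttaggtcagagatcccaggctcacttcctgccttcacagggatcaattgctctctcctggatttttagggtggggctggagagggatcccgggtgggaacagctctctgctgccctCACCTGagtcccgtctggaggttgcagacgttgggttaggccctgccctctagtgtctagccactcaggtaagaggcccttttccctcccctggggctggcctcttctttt

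In Spint2 all 3 matches start within 74 bases of the gene start, and in Ap1m2 all 4 within 81 bases. In Lsr they start between 249 and 69 bases before it. Ap1m2 itself was at 18.7 and 11.7 RPKM in HC11 against 0.478 and 0 RPKM in C57MG (3.70, SE 0.24). Other patterns were searched the same way. The GRHL site AACCGGTT stood in 0.116% of all promoters, in 0.0879% of genes higher in HC11, in 0.286% of those higher in C57MG and in 0.307% of those not called. The NF-kB pattern, GGG and CC separated by any 5 bases, stood in 45.8% of all promoters, in 70.5% of genes higher in HC11, in 68.8% of those higher in C57MG and in 67.4% of those not called. The CArG box stood in 1.47% of all promoters, in 1.58% of genes higher in HC11, in 2.19% of those higher in C57MG and in 1.13% of those not called. The share of all promoters counts single starts and the others count genes over all their starts, so only the latter can be set beside each other.

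**Figure D2:**
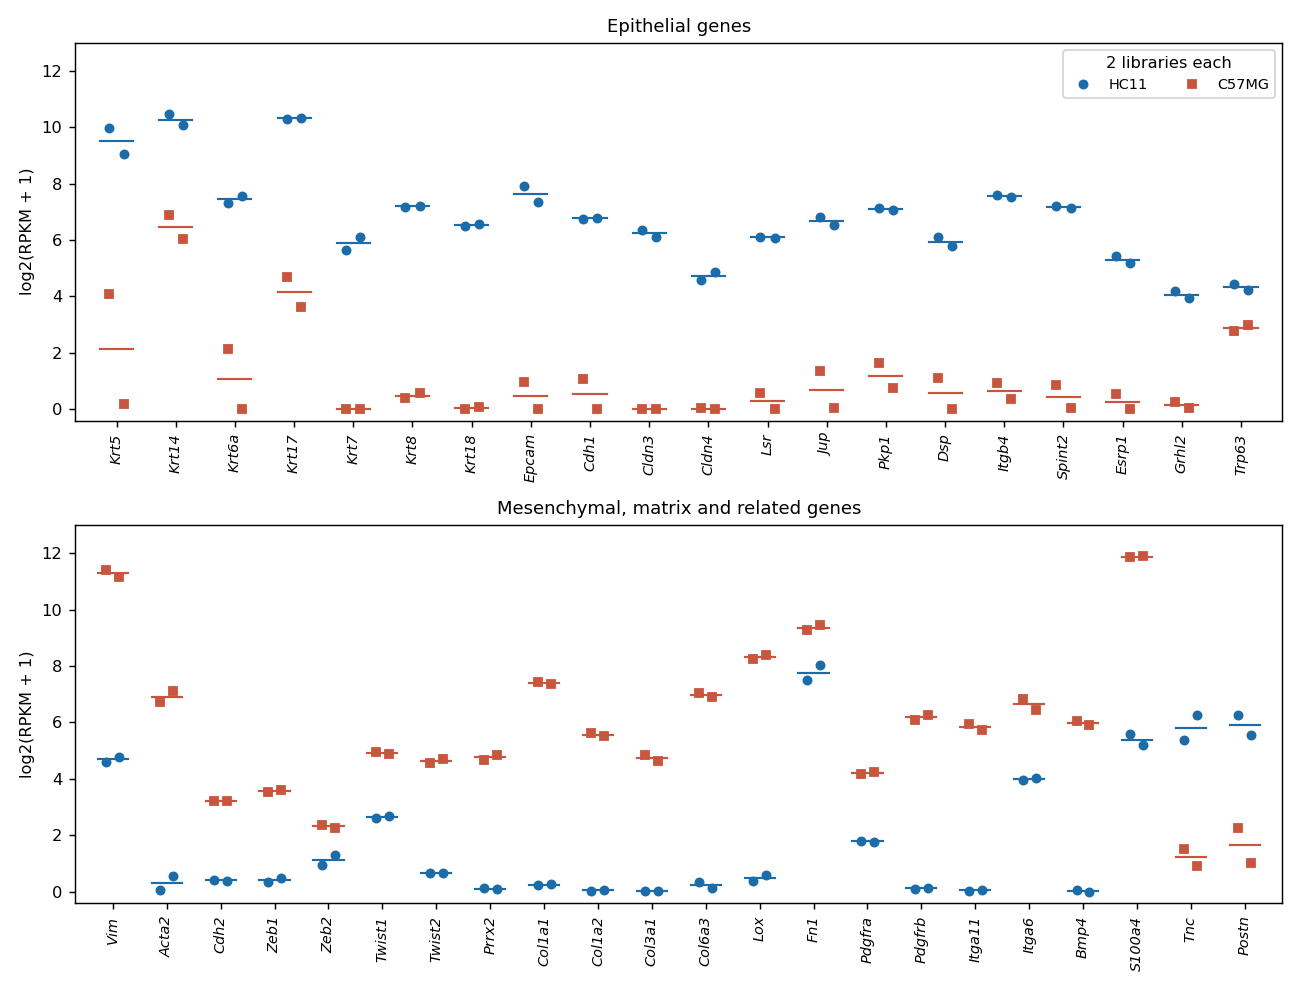
Level of selected genes in each library, as log2(RPKM + 1), with the mean of each line as a bar (blue circles, HC11; red squares, C57MG; 2 libraries each). The epithelial genes in the upper panel are higher in both HC11 libraries, with Trp63 (1.44) and Krt14 (3.80) nearest to C57MG; of the mesenchymal, matrix and related genes in the lower panel, the last pair, Tnc and Postn, is higher in HC11.

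Genes that anchor epithelium to the basement membrane were divided. Of 11 tested hemidesmosome and epithelial laminin genes 5 were higher in HC11 and 3 in C57MG, with a median of 0.58. Itgb4, the integrin beta subunit of hemidesmosomes, was at 192 and 185 RPKM in HC11 against 0.931 and 0.296 RPKM in C57MG (6.91, SE 0.17, limma adjusted p = 1.7e-07). Its alpha partner went the other way. Itga6 was at 14.3 and 15.5 RPKM in HC11 against 113 and 86.8 RPKM in C57MG (-2.65, SE 0.14). The alpha-6 subunit also pairs with beta-1, whose gene Itgb1 was at 322 and 375 RPKM in HC11 against 227 and 231 RPKM in C57MG and not called. Chains of the epithelial laminin of hemidesmosomes were higher in HC11. Lama3 was at 18.4 and 41.2 RPKM in HC11 against 0.214 and 0.038 RPKM in C57MG. Lamb3 was at 70.02 and 116 RPKM in HC11 against 6.3 and 6.85 RPKM in C57MG. In both genes HC11 replicate 2 was the highest library. Lama5, a laminin chain of many basement membranes, was higher in C57MG, at 13.6 and 13.99 RPKM in HC11 against 27.5 and 34.9 RPKM in C57MG (-1.11, but -0.95 and no call without C57MG replicate 2). Plec, a linker between integrins and filaments, was higher in C57MG, at 25.4 and 34.8 RPKM in HC11 against 72.5 and 75.2 RPKM in C57MG.

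Among 13 tested integrin genes 7 were higher in C57MG and 2 in HC11, with a median of -1.02. Itga11, a collagen receptor of fibroblasts, was at 0.021 and 0.041 RPKM in HC11 against 61.02 and 52.6 RPKM in C57MG, at least 1567-fold apart. Itga5, of the fibronectin receptor, was at 10.3 and 11.5 RPKM in HC11 against 57.2 and 48.7 RPKM in C57MG. Itgb5, of a vitronectin receptor, was at 39.9 and 31.9 RPKM in HC11 against 154 and 137 RPKM in C57MG.

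Matrix genes were mostly higher in C57MG. Of 58 tested members 37 were higher in C57MG and 9 in HC11, with a median of -1.43. Among fibrillar collagens 5 of 6 were higher in C57MG. Col1a1, the main chain of type I collagen, was at 0.172 and 0.202 RPKM in HC11 against 171 and 163 RPKM in C57MG (-7.15, SE 0.31, limma adjusted p = 8.71e-07). Col1a2, its partner chain, was at 0.022 and 0.04 RPKM in HC11 against 47.8 and 45.1 RPKM in C57MG. Chains of type VI collagen were less uniform. Col6a3 was at 0.279 and 0.082 RPKM in HC11 against 132 and 118 RPKM in C57MG. Col6a1 was at 50.9 and 31.96 RPKM in HC11 against 396 and 391 RPKM in C57MG and so remained well measurable in HC11. The enzymes and chaperones that fold and crosslink collagen gave 11 of 14 members higher in C57MG and none in HC11. Lox, which crosslinks collagen and elastin, was at 0.302 and 0.508 RPKM in HC11 against 303 and 331.7 RPKM in C57MG, the second largest difference toward C57MG (-7.83, SE 0.23). Serpinh1, the procollagen chaperone, was at 49.3 and 40.7 RPKM in HC11 against 568 and 542 RPKM in C57MG. Pcolce, an enhancer of procollagen cleavage, was at 0.915 and 0.602 RPKM in HC11 against 105 and 113 RPKM in C57MG. Fn1, fibronectin, was abundant in both lines and called toward C57MG, at 179.6 and 261 RPKM in HC11 against 614 and 704 RPKM in C57MG.

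Matrix genes called higher in HC11 included glycoproteins of remodelling tissue. Tnc, tenascin C, was at 40.5 and 75.8 RPKM in HC11 against 1.88 and 0.893 RPKM in C57MG (4.59, SE 0.29). Postn, periostin, was at 75.7 and 46.4 RPKM in HC11 against 3.81 and 1.03 RPKM in C57MG. Lama4, a laminin chain of vessels and mesenchyme, was at 8.803 and 9.49 RPKM in HC11 and listed at 0 in both C57MG libraries, at least 611-fold apart. Some usual stromal genes were thus higher in the epithelial line. Dcn, a proteoglycan often used as a fibroblast marker, was at 1.68 and 3.78 RPKM in HC11 and listed at 0 in both C57MG libraries. Spp1, osteopontin, was abundant in both lines and not called, at 2214 and 2413 RPKM in HC11 against 2741 and 2989 RPKM in C57MG.

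Contractile and cytoskeletal genes were divided between the lines. Of 18 tested members 5 were higher in C57MG and 4 in HC11, with a median of -0.42. Acta2, smooth muscle actin, was at 0.03 and 0.47 RPKM in HC11 against 105 and 136 RPKM in C57MG (-6.61, SE 0.26, limma adjusted p = 6e-07). Vim, vimentin, was at 23.1 and 26.7 RPKM in HC11 against 2708 and 2282 RPKM in C57MG (-6.59). Mylk, myosin light chain kinase, was at 0.027 and 0.048 RPKM in HC11 against 18.99 and 18.4 RPKM in C57MG. Other genes of the list stood on the HC11 side. Tagln, a smooth muscle marker, was at 1.26 and 1.89 RPKM in HC11 against 0.105 and 0 RPKM in C57MG, a low level in both lines. Myh10, a non-muscle myosin heavy chain, was at 40.6 and 42 RPKM in HC11 against 0.18 and 0.025 RPKM in C57MG. Myh9, the other common non-muscle myosin, was at 76.6 and 89.97 RPKM in HC11 against 109 and 131 RPKM in C57MG and was not called. Tropomyosins stabilise actin filaments. Tpm2 was at 64.1 and 71.5 RPKM in HC11 against 1.31 and 0.825 RPKM in C57MG. Tpm1 was at 47.3 and 50.7 RPKM in HC11 against 83.3 and 112 RPKM in C57MG. Tpm4 was at 445 and 438 RPKM in HC11 against 273 and 267 RPKM in C57MG. Of these Tpm2 was called, and Tpm1 (-0.97) was called toward C57MG with quantile normalization (-1.01), without C57MG replicate 1 (-1.18) and without HC11 replicate 2 (-1.02).

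Of 11 tested S100 genes, which encode small calcium-binding proteins, 6 were higher in C57MG and 3 in HC11, with a median of -1.04. S100a4, known as fibroblast-specific protein, was at 46.8 and 35.4 RPKM in HC11 against 3684 and 3794 RPKM in C57MG. S100a8, a calprotectin subunit of neutrophils and stressed epithelium, was at 41.6 and 91.9 RPKM in HC11 against 10.3 and 10.1 RPKM in C57MG.

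The EGF family was higher in HC11 among ligands, while the EGF receptor gene itself was not called. Of 18 tested members 12 were higher in HC11 and none in C57MG, with a median of 1.34. Egfr was at 6.42 and 9.26 RPKM in HC11 against 7.69 and 9.59 RPKM in C57MG, and its libraries overlapped between the lines (-0.14, SE 0.17, limma adjusted p = 0.496). Erbb2, a co-receptor without a ligand of its own, was at 24.7 and 17.8 RPKM in HC11 against 9.09 and 9.66 RPKM in C57MG (1.08, but 0.86 and no call without HC11 replicate 1). Erbb3, its partner with an impaired kinase, was at 5.75 and 3.52 RPKM in HC11 against 0.166 and 0.119 RPKM in C57MG. Of 6 tested ligands 5 were higher in HC11. Ereg, epiregulin, was at 52.4 and 126 RPKM in HC11 against 0.013 and 0 RPKM in C57MG, at least 2037-fold apart. Tgfa, transforming growth factor alpha, was at 20.96 and 21.4 RPKM in HC11 against 2.08 and 1.89 RPKM in C57MG (2.90, SE 0.10). Hbegf, heparin-binding EGF, was at 20.5 and 42.7 RPKM in HC11 against 9.09 and 10.03 RPKM in C57MG. These ligands all bind EGFR. Areg, amphiregulin, was at 59.8 and 121 RPKM in HC11 against 39.97 and 27.5 RPKM in C57MG (1.33). Nrg1, neuregulin, which binds ERBB3, was at 18.7 and 31.99 RPKM in HC11 against 8.84 and 9.07 RPKM in C57MG (1.36). Without HC11 replicate 2 neither was called, at 0.83 and 0.98, which left 3 of the 6 ligands, and Areg was not called without C57MG replicate 2 either (1.07). Btc, betacellulin, was at 1.53 and 2.74 RPKM in HC11 against 2.87 and 1.87 RPKM in C57MG and overlapped between the lines. Ereg, Hbegf and Areg differed by at least 2-fold between the HC11 libraries themselves, with replicate 2 the higher.

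Genes that release or restrain the ligands were split as well. Rhbdf2, a carrier that the sheddase ADAM17 needs, was at 46.7 and 42.1 RPKM in HC11 against 0.084 and 0 RPKM in C57MG (5.45, SE 0.14). Its relative Rhbdf1 was at 29.2 and 25.1 RPKM in HC11 against 31.4 and 29.4 RPKM in C57MG. Adam17 was at 18.9 and 17.4 RPKM in HC11 against 18.7 and 16.9 RPKM in C57MG. Neither Rhbdf1 nor Adam17 was called. Errfi1, an inducible inhibitor of EGFR, was at 73.04 and 133 RPKM in HC11 against 26.1 and 29.03 RPKM in C57MG. Lrig1, which restrains EGFR, was at 44.03 and 55.5 RPKM in HC11 against 16.8 and 16.9 RPKM in C57MG.

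Genes known to respond to ERK signalling were higher in HC11 in 20 of 31 tested members and in none in C57MG, with a median of 1.24. By role, 6 of 8 listed dual-specificity phosphatases, 3 of 4 ETS factors and 11 of 14 immediate early genes were called. Of all 18 tested genes with a Dusp symbol, listed or not, 6 were higher in HC11 and 1 in C57MG (38.9% called). Dusp6, the cytosolic phosphatase of ERK, was at 61.1 and 55.7 RPKM in HC11 against 1.25 and 1.23 RPKM in C57MG (4.73, SE 0.16, limma adjusted p = 3.35e-07). Dusp4, a nuclear phosphatase, was at 17 and 14.8 RPKM in HC11 against 1.53 and 1.35 RPKM in C57MG. Etv4 and Etv5, PEA3-type ETS factors that ERK activity induces, were called, and Etv1, the other member, was not tested. Etv4 was at 28.1 and 23.2 RPKM in HC11 against 5.402 and 2.51 RPKM in C57MG. Etv5 was at 14.9 and 6.91 RPKM in HC11 against 2.02 and 1.03 RPKM in C57MG. Each had a lower value in replicate 2 than in replicate 1 in both lines. Egr1, a zinc finger factor of the early response, was at 10.6 and 11.8 RPKM in HC11 against 0.555 and 0.622 RPKM in C57MG. Fos, a subunit of AP-1, was at 6.96 and 12.7 RPKM in HC11 against 0.306 and 0.359 RPKM in C57MG. Myc was at 70.5 and 86.4 RPKM in HC11 against 37.5 and 27.98 RPKM in C57MG. The largest differences among immediate early genes were those of Ier3 and Phlda1. Ier3, an early response gene, was at 262 and 522 RPKM in HC11 against 26.3 and 21.9 RPKM in C57MG. Phlda1 was at 85.6 and 136 RPKM in HC11 against 10.96 and 10.3 RPKM in C57MG.

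None of the 5 tested Sprouty and Spred genes, which also restrain ERK signalling, was called. Spry2 was at 7.36 and 8.47 RPKM in HC11 against 6.98 and 6.32 RPKM in C57MG (0.22). Spry1 was at 1.83 and 1.68 RPKM in HC11 against 1.81 and 1.88 RPKM in C57MG (-0.04). Spred1 was at 15.3 and 12.64 RPKM in HC11 against 14.9 and 14.5 RPKM in C57MG (-0.08). Feedback genes of the pathway thus did not all separate the lines. Ccnd1, which encodes cyclin D1, was at 216 and 220 RPKM in HC11 against 226 and 196 RPKM in C57MG and overlapped between the lines. Jun, another AP-1 subunit, was at 18.1 and 23.3 RPKM in HC11 against 33.6 and 32.6 RPKM in C57MG (-0.66), under the size threshold. Fosl1, also of AP-1, was at 22.3 and 56.6 RPKM in HC11 against 102 and 64.6 RPKM in C57MG and missed the p-value threshold (-1.17, limma adjusted p = 0.0876). It was called toward C57MG without HC11 replicate 2 (-1.82, limma adjusted p = 0.0399) and with the replicate number as a block (limma adjusted p = 0.0411).

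**Figure D3:**
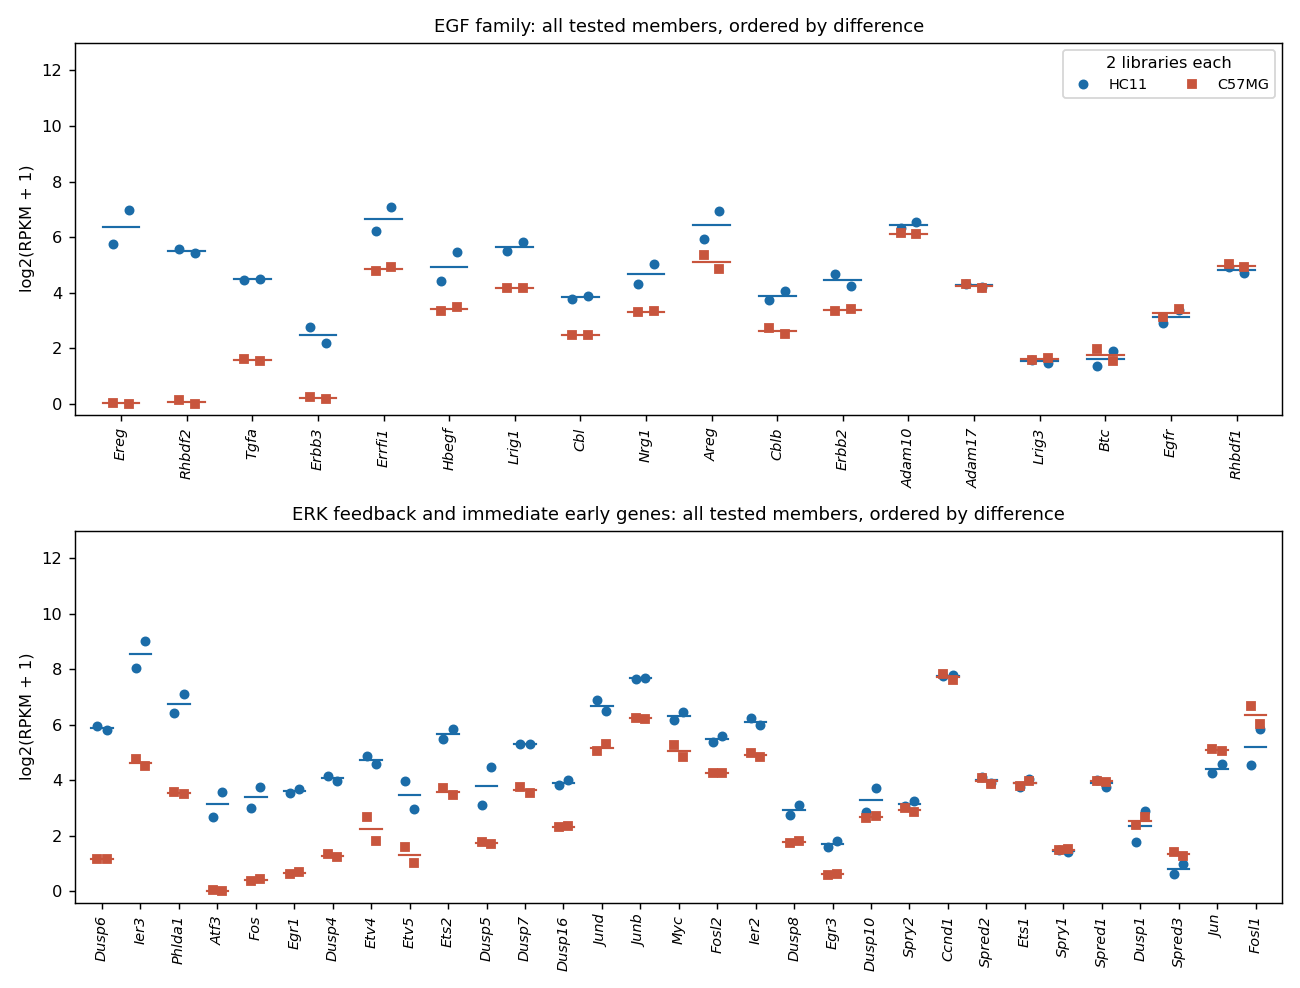
Level of every tested EGF family gene (upper panel) and ERK feedback or immediate early gene (lower panel) in each library, as log2(RPKM + 1), ordered by the difference between lines (blue circles, HC11; red squares, C57MG; bars, means of 2 libraries). Egfr lies near the right end of the upper panel with overlapping libraries, while Dusp6 opens the lower panel with a difference of 4.73.

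Other growth factor genes showed exchanges within families. Of 36 tested members 13 were higher in C57MG and 10 in HC11, with a median of -0.47. The clearest exchange was among the binding proteins of insulin-like growth factors. Igfbp5 was at 485 and 368 RPKM in HC11 against 1.62 and 0.011 RPKM in C57MG (8.02, SE 0.39). Igfbp3 was at 146 and 193 RPKM in HC11 against 2.72 and 0.041 RPKM in C57MG. In both the trace in C57MG came from replicate 1. Igfbp4 was at 0.793 and 1.28 RPKM in HC11 against 341 and 358 RPKM in C57MG (-7.43, SE 0.35). Igfbp6 was at 0.775 and 0.377 RPKM in HC11 against 35.2 and 35.4 RPKM in C57MG. Igfbp7 was at 18.7 and 22.6 RPKM in HC11 against 211 and 244 RPKM in C57MG. The receptors for insulin and IGF1, through which the insulin of both media can act, were not called. Insr was at 6.04 and 6.04 RPKM in HC11 against 3.12 and 3.87 RPKM in C57MG. Igf1r was at 22.6 and 29.4 RPKM in HC11 against 22.3 and 24.03 RPKM in C57MG and overlapped between the lines.

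Receptors for factors that pass between stroma and epithelium also separated the lines. Met, the HGF receptor, was at 44.4 and 59.7 RPKM in HC11 against 5.92 and 4.65 RPKM in C57MG. Hgf, its ligand and usually a product of mesenchyme, was at 3.38 and 3.597 RPKM in HC11 against 0.02 and 0 RPKM in C57MG, at least 139-fold apart. Ligand and receptor genes were thus both higher in HC11. Pdgfrb, a PDGF receptor of stromal cells, was at 0.079 and 0.089 RPKM in HC11 against 67.5 and 75.3 RPKM in C57MG. Pdgfra, the other PDGF receptor, was at 2.47 and 2.403 RPKM in HC11 against 17.03 and 17.9 RPKM in C57MG. The PDGF ligands were divided. Pdgfa was at 21.9 and 17.97 RPKM in HC11 against 8.37 and 7.09 RPKM in C57MG. Pdgfb was at 1.07 and 1.44 RPKM in HC11 against 8.59 and 11.5 RPKM in C57MG. Vegfa, the endothelial growth factor, was at 46.3 and 54.3 RPKM in HC11 against 8.22 and 8.82 RPKM in C57MG. Angpt1, angiopoietin 1, was at 0.127 and 0.148 RPKM in HC11 against 157 and 172 RPKM in C57MG.

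Both lines expressed secreted inflammatory genes, and most of those tested differed between them. Of 46 tested members 24 were higher in HC11, 11 were higher in C57MG and 11 were not called, with a median of 1.21. Il1a, interleukin-1 alpha, was at 386 and 1058 RPKM in HC11 against 0.084 and 0.033 RPKM in C57MG, at least 7893-fold apart (9.24, SE 0.40, limma adjusted p = 8.96e-07). Cxcl1, a neutrophil attractant, was at 442 and 964 RPKM in HC11 against 0.29 and 0.885 RPKM in C57MG. Csf3, the granulocyte growth factor, was at 231 and 595 RPKM in HC11 against 0.039 and 0 RPKM in C57MG. The HC11 libraries were far above C57MG for each, and replicate 2 was the higher. Ptgs2, the inducible cyclooxygenase, was at 149.8 and 521 RPKM in HC11 against 6.34 and 4.02 RPKM in C57MG. Lif was at 55.02 and 99.2 RPKM in HC11 against 0.903 and 0.656 RPKM in C57MG. Il6 was at 58.2 and 90.3 RPKM in HC11 against 1.17 and 0.895 RPKM in C57MG. These cytokines signal through a shared receptor subunit. Monocyte attractants and the macrophage growth factor stood on the C57MG side. Ccl2 was at 0.946 and 3.86 RPKM in HC11 against 236 and 240 RPKM in C57MG (-6.28, SE 0.47). Ccl7 was at 0 and 0.349 RPKM in HC11 against 205 and 214 RPKM in C57MG. Csf1 was at 2.18 and 5.19 RPKM in HC11 against 354 and 339 RPKM in C57MG. By role, 3 of 5 tested CC chemokines were higher in C57MG and none in HC11, and 5 of 7 CXC and CX3C chemokines were higher in HC11. Cxcl12, a stromal chemokine, was one of the other two, at 0.323 and 0.819 RPKM in HC11 against 92.8 and 103 RPKM in C57MG. Ptx3, a secreted pattern receptor, was at 0.642 and 2.03 RPKM in HC11 against 131 and 135 RPKM in C57MG.

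The HC11 libraries differed from each other in this group. Of the 24 genes called higher in HC11, 23 were higher in replicate 2 than in replicate 1, 11 of them by at least 2-fold, with a median of 0.87 on the log2 scale. Over all tested genes the median of that difference was -0.01, and 67 genes were at least 2-fold higher in replicate 2. Cxcl2, another neutrophil attractant with close relatives, had the widest gap, at 14.3 and 105 RPKM in HC11 and listed at 0 in both C57MG libraries. When each library was left out in turn, 23 or 24 members were called higher in HC11 and 11 in C57MG. Regulators of NF-kB, which controls many of these genes, gave 3 of 10 members higher in HC11 (30%) and 1 in C57MG (10%). The shares of all tested genes were 14.4% and 13.2%. Nfkbiz was at 27.5 and 34.8 RPKM in HC11 against 5.62 and 7.06 RPKM in C57MG. Nfkbia, the main inhibitor, was at 44.1 and 53.8 RPKM in HC11 against 38.1 and 39.3 RPKM in C57MG and not called. A pair of receptor genes for HC11 cytokines was higher in C57MG. Il1r1, which binds interleukin-1 alpha, was at 5.07 and 4.98 RPKM in HC11 against 19.6 and 18.1 RPKM in C57MG. Il6st, the subunit shared by the Il6 and Lif receptors, was at 9.75 and 11.5 RPKM in HC11 against 52.8 and 49.2 RPKM in C57MG.

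**Figure D4:**
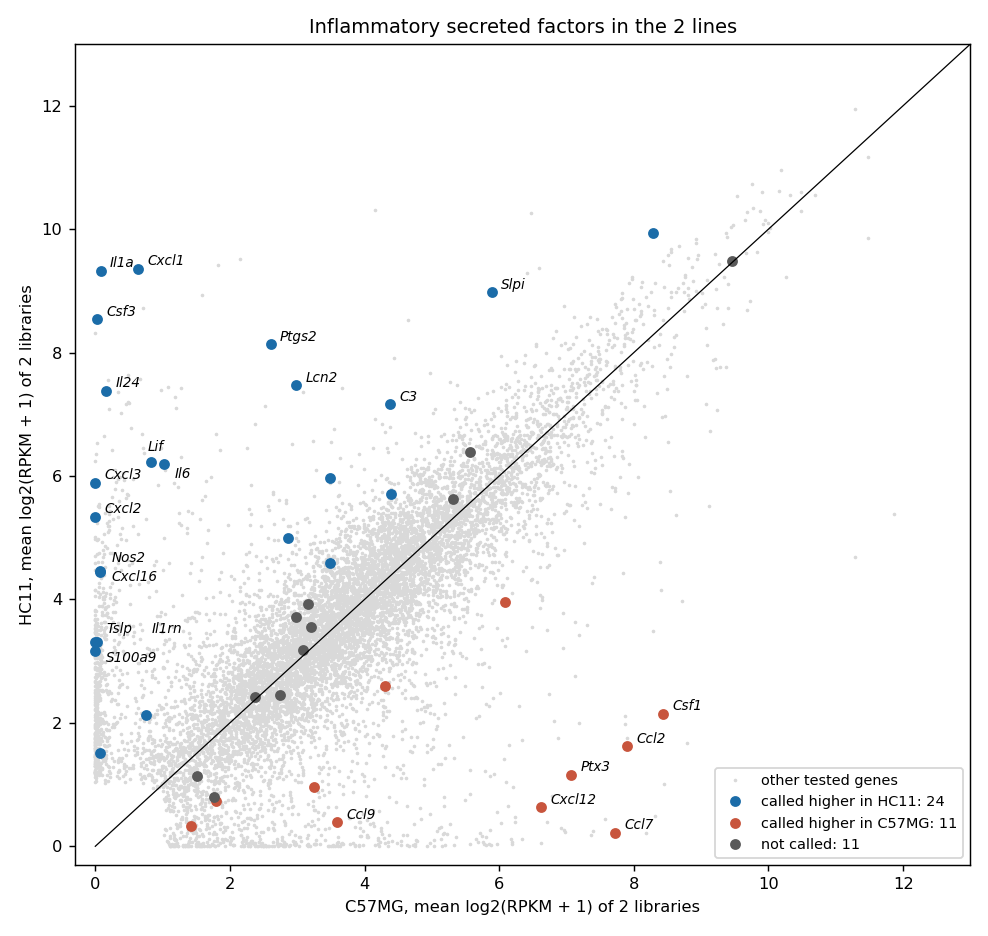
Mean log2(RPKM + 1) of the 2 libraries of HC11 (vertical axis) against that of C57MG (horizontal axis) for 46 inflammatory genes (coloured by call) over all other tested genes (grey), with the line of equality. Il1a, Cxcl1 and Csf3 lie at the upper left, near 0 in C57MG, and Csf1, Ccl2 and Ccl7 at the lower right.

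Protease genes were divided between the lines. Of 42 tested proteases and inhibitors 15 were higher in HC11 and 13 in C57MG, with a median of 0.13. All 10 tested matrix metalloproteinases were called, 4 higher in HC11 and 6 in C57MG. Mmp10, a stromelysin, was at 15.97 and 39.4 RPKM in HC11 and listed at 0 in both C57MG libraries, at least 264-fold apart. Mmp3, the other stromelysin, was at 4.85 and 19.9 RPKM in HC11 and listed at 0 in both C57MG libraries. Mmp13, a collagenase, was at 3.98 and 19.1 RPKM in HC11 against 0.021 and 0 RPKM in C57MG. In all 3 genes HC11 replicate 2 was the higher library by at least 2-fold. Mmp14, membrane-bound, was at 83.4 and 75.5 RPKM in HC11 against 211 and 203 RPKM in C57MG. Mmp2, a gelatinase that MMP14 activates, was at 11.1 and 8.73 RPKM in HC11 against 21.9 and 21.3 RPKM in C57MG (-1.06, but -0.90 and no call without HC11 replicate 2). Mmp19 was at 0.79 and 0.901 RPKM in HC11 against 13.4 and 12.99 RPKM in C57MG. Stromelysins and this collagenase thus stood on the HC11 side. Serpine2, an inhibitor of thrombin and plasminogen activators, was at 165 and 214 RPKM in HC11 against 0.144 and 0.135 RPKM in C57MG (7.37, SE 0.14). Serpinb5, maspin, was at 93.7 and 79.99 RPKM in HC11 against 1.53 and 0.047 RPKM in C57MG. Ctsl, a lysosomal cathepsin, was at 581 and 747 RPKM in HC11 against 95.2 and 95.3 RPKM in C57MG, and another cathepsin went the other way. Ctsd was at 219 and 214 RPKM in HC11 against 655 and 589 RPKM in C57MG.

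The 4 metalloproteinases higher in HC11 shared promoter letters. The AP-1 pattern TGANTCA, searched on both strands, stood in 6.75% of all promoters of 250 bases, in 7.91% of genes called higher in HC11, in 8.67% of those higher in C57MG and in 4.54% of those not called. It stood in 6 of 13 proteases and inhibitors called higher in HC11 and listed in the promoter table, namely Mmp3, Mmp10, Mmp12, Mmp13, Serpinb2 and Serpinb5, and in none of 7 called higher in C57MG. It also stood in 7 of 17 inflammatory genes higher in HC11 and listed there, among them Il1a, Il6 and Lif. Of listed ERK feedback and immediate early genes higher in HC11 it stood in 0 of 13, and of listed EGF family genes in 0 of 7. The 3 stretches shown, from the metalloproteinases with the largest differences toward HC11, hold 1 match each (capitals). It starts 46 bases before the gene start in Mmp3 (chr9:7445572-7445821), 63 bases in Mmp10 (chr9:7502092-7502341) and 35 bases in Mmp13 (chr9:7272264-7272513), all on the plus strand of GRCm38.p6 as RefSeq gives them.
Mmp3: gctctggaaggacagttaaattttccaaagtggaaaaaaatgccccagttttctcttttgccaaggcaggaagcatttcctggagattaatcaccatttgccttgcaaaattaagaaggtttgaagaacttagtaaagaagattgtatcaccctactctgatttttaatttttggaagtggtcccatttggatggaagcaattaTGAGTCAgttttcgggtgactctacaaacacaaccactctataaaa
Mmp10: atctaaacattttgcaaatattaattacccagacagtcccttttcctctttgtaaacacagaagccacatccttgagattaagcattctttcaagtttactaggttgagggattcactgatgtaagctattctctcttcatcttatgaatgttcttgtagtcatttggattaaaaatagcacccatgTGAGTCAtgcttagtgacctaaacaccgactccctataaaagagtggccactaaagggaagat
Mmp13: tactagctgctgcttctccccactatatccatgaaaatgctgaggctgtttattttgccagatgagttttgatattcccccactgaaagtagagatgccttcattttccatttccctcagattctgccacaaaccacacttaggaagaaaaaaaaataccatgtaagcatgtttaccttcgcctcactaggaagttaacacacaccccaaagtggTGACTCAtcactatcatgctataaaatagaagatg

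These genes lie near each other on chromosome 9 and are related in sequence, so their promoters are not independent examples. AP-1 is formed by Fos and Jun proteins, of which Fos, Fosl2, Junb and Jund transcripts were higher in HC11, while Jun and Fosl1 were not called. Whether AP-1 acts on these promoters was not tested.

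Genes of the TGF-beta and BMP family were divided. Of 44 tested members 14 were higher in C57MG (31.8%) and 8 in HC11 (18.2%), with a median of -0.06. The shares of all tested genes were 13.2% and 14.4%. Of 9 ligands 3 were higher in C57MG and 2 in HC11. Bmp4 was at 0.048 and 0 RPKM in HC11 against 64.7 and 58.5 RPKM in C57MG, at least 744-fold apart. Tgfb3 was at 3.69 and 2.001 RPKM in HC11 against 30.1 and 34.4 RPKM in C57MG. Tgfb2 was at 4.72 and 6.51 RPKM in HC11 against 1.42 and 1.76 RPKM in C57MG. The isoforms of TGF-beta were thus exchanged, and Tgfb1, at 31.9 and 31.4 RPKM in HC11 against 38.2 and 34.9 RPKM in C57MG, was not called. Inhba, a subunit of activin A, was at 64.3 and 92.3 RPKM in HC11 against 13.3 and 9.79 RPKM in C57MG. Fst, follistatin, which binds activin, was at 11.98 and 19.7 RPKM in HC11 against 2.04 and 0 RPKM in C57MG. Fstl1, a follistatin relative, was at 24.9 and 23.96 RPKM in HC11 against 0.259 and 0.277 RPKM in C57MG. Genes that BMP signalling is known to induce were higher in C57MG in part. Smad6, an inhibitory SMAD, was at 1.75 and 1.15 RPKM in HC11 against 16.3 and 21.5 RPKM in C57MG. Id3, an inhibitor of helix-loop-helix factors, was at 72.8 and 77.9 RPKM in HC11 against 157 and 187 RPKM in C57MG. Id1, its relative, was at 142 and 134 RPKM in HC11 against 128 and 128 RPKM in C57MG and not called.

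Wnt pathway genes were divided evenly, with 8 of 30 tested members higher in each line and a median of -0.10. Of 6 tested ligands 3 were higher in HC11 and 2 in C57MG. Wnt5a, a ligand of beta-catenin-independent signalling, was at 0.021 and 0 RPKM in HC11 against 22.4 and 24.9 RPKM in C57MG, at least 995-fold apart. Wnt4, the ligand of the progesterone response in the gland, was at 3.17 and 2.796 RPKM in HC11 against 11.03 and 12.2 RPKM in C57MG (-1.66, SE 0.10, limma adjusted p = 5.59e-06). Wnt10a was at 10.6 and 7.41 RPKM in HC11 and listed at 0 in both C57MG libraries, at least 123-fold apart. Wnt4 was thus present in both lines, while Wnt5a and Wnt10a were each near 0 in one. Sfrp1, a secreted Wnt binder, was at 34.4 and 27.4 RPKM in HC11 against 0.051 and 0.015 RPKM in C57MG. Fzd1, a receptor, was at 26.9 and 22.6 RPKM in HC11 against 2.23 and 1.79 RPKM in C57MG. Lrp6, a co-receptor, was at 14.4 and 13.2 RPKM in HC11 against 32.9 and 37.2 RPKM in C57MG. The genes of the complex that degrades beta-catenin were close between lines, with Axin1 at 29.7 and 28.5 RPKM in HC11 against 29.5 and 28.3 RPKM in C57MG. Apc was at 7.55 and 7.54 RPKM in HC11 against 6.8 and 7.26 RPKM in C57MG.

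Of 16 tested Notch pathway genes 6 were higher in HC11 (37.5%) and 2 in C57MG (12.5%), with a median of -0.19. The shares of all tested genes were 14.4% and 13.2%. Of 4 ligands 3 were higher in HC11 and 1 in C57MG. Jag2 was at 58.8 and 43.2 RPKM in HC11 against 0.764 and 0.112 RPKM in C57MG. Jag1 was at 9.57 and 14.8 RPKM in HC11 against 1.804 and 1.41 RPKM in C57MG. The ligand toward C57MG was Dlk2, at 2.32 and 5.45 RPKM in HC11 against 10.8 and 10.9 RPKM in C57MG (-1.36, but -0.88 and no call without HC11 replicate 1). Of 4 receptors 1 was higher in C57MG and none in HC11. Notch2 was at 12.5 and 14.7 RPKM in HC11 against 25.1 and 25.1 RPKM in C57MG and not called. Notch4 was called at a low level, with 0.16 and 0.164 RPKM in HC11 against 2.48 and 1.98 RPKM in C57MG. Hes1, a Notch target, was at 29 and 33.1 RPKM in HC11 against 12.7 and 10.03 RPKM in C57MG. Guidance cues and their receptors gave 11 of 36 tested members higher in HC11 (30.6%) and 8 in C57MG (22.2%), with a median of 0.01. Epha1 was at 23.2 and 14.2 RPKM in HC11 against 0.406 and 0 RPKM in C57MG. Ephb6, a kinase-dead Eph receptor, was at 1.998 and 0.407 RPKM in HC11 against 67.05 and 68.8 RPKM in C57MG. Ntn1, netrin-1, was at 1.14 and 1.65 RPKM in HC11 against 27.3 and 35.97 RPKM in C57MG.

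Of 11 tested Hox genes 8 were higher in HC11 and none in C57MG, with a median of 1.66. These genes encode position along the body axis, and those tested belong to clusters A and B. Levels of the called genes were low. Hoxb2 was at 4.78 and 4.72 RPKM in HC11 against 0.143 and 0.019 RPKM in C57MG. Hoxa4 was at 3.07 and 3.503 RPKM in HC11 and listed at 0 in both C57MG libraries. Hoxb9 was at 21.9 and 21.4 RPKM in HC11 against 15.99 and 16.1 RPKM in C57MG and not called. With a minimum mean of 5 RPKM, none of the 8 called Hox genes was tested.

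Antigen presentation genes were called more often toward C57MG. Of 42 tested members of the MHC class I and interferon list 13 were higher in C57MG and 2 in HC11, with a median of -0.54, and 8 of 15 class I presentation genes were among the 13. B2m, the invariant light chain, was at 211 and 263 RPKM in HC11 against 591 and 568 RPKM in C57MG (-1.29, SE 0.11, limma adjusted p = 2.61e-05). Tap1, of the peptide transporter, was at 0.718 and 0.331 RPKM in HC11 against 4.26 and 4.48 RPKM in C57MG. Tap2, its partner, was at 2.52 and 2.16 RPKM in HC11 against 12.8 and 14.6 RPKM in C57MG. Light chain and transporter thus went together. Tapbp, which links them, was at 15.4 and 16.9 RPKM in HC11 against 69.6 and 75.2 RPKM in C57MG. Psmb8, an immunoproteasome subunit, was at 0.138 and 0.128 RPKM in HC11 against 20.7 and 24.9 RPKM in C57MG. It was the 1 called gene among 36 tested proteasome subunits, whose median was 0.03. H2-D1, a heavy chain, was at 2.13 and 2.73 RPKM in HC11 against 42.4 and 43.9 RPKM in C57MG. H2-K1, another, stood on the HC11 side at 15.6 and 14.9 RPKM in HC11 against 8.15 and 8.01 RPKM in C57MG (0.84), under the size threshold. Class I heavy chains are near-identical copies that vary between mouse strains, so both values are uncertain. Of 18 tested interferon-stimulated genes 4 were higher in C57MG and 1 in HC11, and the share called (27.8%) was near the 27.6% of all tested genes.

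Of 40 tested genes of glutathione metabolism and the NRF2 response 12 were higher in C57MG (30%) and 6 in HC11 (15%), with a median of -0.41. The shares of all tested genes were 13.2% and 14.4%. Of 12 tested glutathione transferases 6 were higher in C57MG and 2, Gstt1 and Gstt3, in HC11. Gstm1 was at 3.05 and 1.502 RPKM in HC11 against 448 and 431 RPKM in C57MG (-7.11, SE 0.32). Gstm2 was at 0.385 and 0.042 RPKM in HC11 against 129 and 118 RPKM in C57MG. Both belong to a cluster of similar genes, so how reads were split between them is uncertain. Gclc, the catalytic subunit of glutathione synthesis, was at 17.3 and 18.3 RPKM in HC11 against 59.5 and 63.3 RPKM in C57MG. Srxn1, an NRF2 target, was at 20.7 and 17.8 RPKM in HC11 against 88.3 and 89.5 RPKM in C57MG. Toward HC11 stood an epithelial glutathione peroxidase and a cystine transporter. Gpx2, the former, was at 69.99 and 46.5 RPKM in HC11 against 2.65 and 0 RPKM in C57MG. Slc7a11, the latter, was at 7.704 and 7.66 RPKM in HC11 against 0.266 and 0.19 RPKM in C57MG.

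Of 27 tested cholesterol synthesis genes 8 were higher in C57MG and none in HC11, with a median of -0.63. The share called (29.6%) was near the 27.6% of all tested genes, of which 13.2% were called toward C57MG and 14.4% toward HC11. Sqle, squalene epoxidase, was at 26.4 and 24.5 RPKM in HC11 against 134 and 99.8 RPKM in C57MG (-2.14, SE 0.15). Insig1, a sterol sensor, was at 12.3 and 12.6 RPKM in HC11 against 63.2 and 42.5 RPKM in C57MG. Genes of amino acid supply and serine synthesis that the factor ATF4 induces went the other way, with 11 of 33 tested members higher in HC11 and 2 in C57MG and a median of 0.60. Asns, asparagine synthetase, was at 187 and 141 RPKM in HC11 against 57.2 and 54.2 RPKM in C57MG. Mthfd2, of mitochondrial one-carbon metabolism, was at 109.9 and 95.5 RPKM in HC11 against 27 and 24.8 RPKM in C57MG. Slc7a5, an amino acid transporter, was at 151 and 117 RPKM in HC11 against 50.2 and 46.9 RPKM in C57MG. Of the calls toward C57MG, that of Atf5 (-1.04), a factor related to ATF4, was lost without C57MG replicate 1 (-0.995) and without HC11 replicate 2 (-0.96). Basal medium differed between the lines, and its part in these lists was not tested.

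Of 76 tested oxidative phosphorylation genes 6 were called (7.89%), of 75 cytosolic ribosomal protein genes 12 (16%), of 66 genes of DNA replication and mitosis 8 (12.1%) and of 23 glycolysis genes 5 (21.7%), against 27.6% of all tested genes. The share of glycolysis genes was near that of all tested genes, and the other three were lower. The medians were 0.10, 0.43, -0.10 and -0.09. Ribosomal protein genes have many processed copies, which makes single values uncertain. Rpl29, the widest of them, was at 52.02 and 53.8 RPKM in HC11 against 379.9 and 364 RPKM in C57MG. In glycolysis the lactate dehydrogenase genes differed. Ldhb was at 18.7 and 13.6 RPKM in HC11 against 0.106 and 0 RPKM in C57MG. Ldha was at 545 and 508 RPKM in HC11 against 430 and 466 RPKM in C57MG and not called. Of the 8 called genes of replication and mitosis 5 were cyclins and inhibitors. Ccnd2, cyclin D2, was at 11.3 and 12.4 RPKM in HC11 and listed at 0 in both C57MG libraries, at least 617-fold apart. Ccne1, cyclin E1, was at 22.6 and 27.2 RPKM in HC11 against 4.84 and 4.73 RPKM in C57MG. Cdkn2a, which encodes the inhibitors p16 and p19ARF, was at 70.7 and 71.3 RPKM in HC11 against 13.1 and 12.62 RPKM in C57MG. Mki67, the proliferation marker, was at 64.8 and 69.8 RPKM in HC11 against 95.7 and 110.4 RPKM in C57MG and not called. Of 28 tested p53 targets 9 were called (32.1%), a share near that of all tested genes, 5 toward HC11 and 4 toward C57MG.

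Of 22 listed luminal and milk genes 10 were in the deposited table, among them 1 of 8 milk proteins, and 8 were tested. Of those tested 3 (37.5%) were higher in C57MG and 1 (12.5%) in HC11, with a median of -0.61. The shares of all tested genes were 13.2% and 14.4%. These counts thus cover only a part of the list. Stat5a, the transducer of prolactin signalling, was at 1.82 and 1.28 RPKM in HC11 against 7.13 and 7.37 RPKM in C57MG. Ghr, the growth hormone receptor, was at 3.41 and 5.11 RPKM in HC11 against 17.7 and 18.4 RPKM in C57MG. Ly6d, a luminal surface marker, was at 19.7 and 5.66 RPKM in HC11 against 2.402 and 0.469 RPKM in C57MG. Of 4 tested hormone signalling genes 2 were higher in C57MG and none in HC11. Ly6a, which encodes Sca-1, was at 26.8 and 7.92 RPKM in HC11 against 412 and 424 RPKM in C57MG. Mfge8, a milk fat globule protein, was at 42.8 and 50.4 RPKM in HC11 against 62.7 and 67.3 RPKM in C57MG and not called. A separate list of 9 luminal mammary markers had 6 in the table, without Krt19, Elf5 and Foxa1. Of 5 tested markers 3 were higher in HC11 (Krt8, Krt18 and Areg) and none in C57MG. The 6 summed to 601.6 and 694.7 RPKM in HC11 against 260.9 and 236.1 RPKM in C57MG.

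Of the 100 largest differences toward HC11, 52 fell in a list, and of the 100 toward C57MG, 33 did. The largest outside the lists toward HC11 was Wfdc2, a secreted epithelial protease inhibitor, at 308 and 326 RPKM in HC11 and listed at 0 in both C57MG libraries, at least 2004-fold apart. Tmsb4x, an actin-sequestering peptide with close copies, was at 791 and 589 RPKM in HC11 against 5.53 and 0.899 RPKM in C57MG. Hspb1, a small heat shock protein, was at 472 and 504 RPKM in HC11 against 6.92 and 0.126 RPKM in C57MG. In the last pair the C57MG libraries lay far apart, with replicate 1 the higher. Lypd3, a surface protein of stratified epithelium, was at 161 and 166 RPKM in HC11 against 0.612 and 0 RPKM in C57MG. Lad1, a basement membrane filament protein, was at 162 and 129 RPKM in HC11 against 0.999 and 0 RPKM in C57MG. Epithelial genes were thus also found outside the lists. Toward C57MG the largest of all was Ly6c1, a surface protein with close relatives, at 0.25 and 0.081 RPKM in HC11 against 284 and 291 RPKM in C57MG (-7.96, SE 0.10, limma adjusted p = 2.76e-08). Aqp1, a water channel, was at 0.348 and 0.372 RPKM in HC11 against 193 and 184 RPKM in C57MG.

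Grouped by symbol, the families with the largest shares of called members were Epb, Krt and Mmp, in which all members were called, followed by Galnt and Col. Krt gave 11 of 12 toward HC11 and Col 12 of 21 toward C57MG with 5 toward HC11. Epb, genes of the membrane skeleton and 1 opposite-strand transcript, gave 5 of 8 toward HC11 and 3 toward C57MG. Galnt, the enzymes that start mucin-type glycosylation, gave 6 of 11 toward HC11 and 3 toward C57MG. In Epb, Mmp and Galnt the members therefore went in both directions. Ifi, a group of interferon-inducible genes, gave 6 of 9 toward C57MG and 1 toward HC11.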

How the data were processed

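Poly(A) RNA of untreated cells was measured as gene-level RPKM. The authors deposited 1 RPKM value per gene and library, and the submitters' processing notes name STAR and mm9. The counter, annotation, gene lengths and any filter are not given in the sources used here, nor whether counting used the strand. Read depths and floors of 3 reads were estimated from steps in low values with GRCm38 exon lengths and cover counting error only. Log2(RPKM + 1) was fitted with limma 3.58.1 in R 4.3.3 (eBayes with trend, all 6 libraries sharing 1 spread), with Benjamini-Hochberg adjustment over the 10491 tested genes and the offset of 1 understating changes of low genes. The fit was tested on simulated data. Promoters came from RefSeq (GRCm38.p6). Python 3.11.15, numpy 2.4.6, pandas 2.3.3 and matplotlib 3.10.9 did the remaining work.

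Genes were named by a rule: the 10 largest called differences in each direction overall and outside the lists, up to 4 called members per list and direction, the 2 most abundant members where a direction had no call, and Egfr, Erbb2, Erbb3, Cdh1, Cdh2, Vim, Krt5, Krt14, Acta2, Wnt4, Insr and Igf1r. The members, lists and tests were chosen with earlier results of these data known, and genes named beyond the rule with their values in view. Alternatives changed the pseudocount (0.1), the filter (none, or a mean of 5 RPKM), the scaling (quantile or median-ratio), the libraries in the model (4, or without each in turn), the variance (no trend, or robust) and the replicate block. Results for some genes that the rule names are not reported here.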

Additional observations from a re-analysis of the deposited data

How the results depend on the processing

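With a mean of at least 5 RPKM fewer genes were tested, and 1865 were called in place of 2894, 946 toward HC11 and 919 toward C57MG. The members called toward HC11 then numbered 13 epithelial regulators (22 in the report), 3 guidance genes (11), 0 Hox genes (8), 5 matrix genes (9), 6 other growth factors (10), 5 TGF-beta and BMP genes (8) and 5 Wnt genes (8). Toward C57MG they numbered 5 guidance genes (8) and 5 mesenchymal regulators (8). With quantile normalization 3 ribosomal protein genes were higher in HC11 in place of 9, and without each library in turn 4 to 12, so that count depends on scaling and on single libraries. Genes not called changed sign in places. Ccnd1 (0.05) came to -0.09 with quantile normalization and to between -0.05 and 0.16 without each library. Egfr (-0.14) came to between -0.37 and 0.10, Igf1r (0.15) to between -0.03 and 0.33 and Tfap2a to between -0.06 and 0.20 without each library.

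Of 203 called genes that the naming rule gives, 193 kept their call under every alternative that tested them. The other 10 lost it under at least 1, and none reversed. Genes named beyond the rule are not in these counts. Of those, Krt16, Areg, Nrg1, Mmp2 and Thbs1 lost their call under at least 1 alternative. Of the 2894 calls, 2800 also stood with quantile normalization, 2864 with median-ratio scaling and 2520 without any 1 library. Leaving out each library gave 1500 to 1542 calls toward HC11 and 1363 to 1431 toward C57MG. The replicate numbers come from the labels, and the deviations of same-numbered libraries correlated at 0.03745 over genes in 2 pairs. A correlation over all tested genes cannot show whether such libraries shared a batch that moved fewer genes. With the number as a replicate block 1509 genes were called higher in HC11 and 1386 higher in C57MG, among them Fosl1 (limma adjusted p = 0.0411), which the report's fit did not call. With 2 libraries per line and no counts, differences of genes near the floor are limited by depth.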

Other observations

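Differences between the lines were uneven across chromosomes. Of 586 tested genes on chromosome 8, 178 were higher in HC11 and 38 in C57MG, with a median difference of 0.69. On chromosome 5 the counts were 163 and 46 of 673 genes, with a median of 0.51, and on chromosome 6 they were 117 and 54 of 500, with a median of 0.42. Chromosome 15 went the other way, with 37 genes higher in HC11 and 137 in C57MG of 427 and a median of -0.60. On chromosome 9 the median was 0.00191. The median over all tested genes was 0.02. Chromosomes were assigned by gene identifier from GENCODE, and copy number was not measured.

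The HC11 libraries were at least 2-fold apart in 80 tested genes, 67 of them higher in replicate 2. These included Odc1, which starts polyamine synthesis, at 393.8 and 1000 RPKM in replicates 1 and 2. Nos2, inducible nitric oxide synthase, was at 10.58 and 40.89 RPKM. Thbs1, thrombospondin 1, was at 189.1 and 424.5 RPKM. Genes higher in replicate 1 included the surface proteins Ly6a and Ly6d, which differed by -1.64 each on the log2(RPKM + 1) scale, and Lgals7, a galectin of stratified epithelium, by -1.47.

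The C57MG libraries were at least 2-fold apart in 30 tested genes, 25 of them higher in replicate 1. Most of the largest gaps were in epithelial genes that HC11 expressed at a high level, and BC44 expressed some of these as well, with Krt5 at 2012 and 1828 RPKM. Krt8 and Krt18, high in HC11 and near 0 in BC44, were not higher in C57MG replicate 1. They stood there at 0.307 and 0.503 RPKM and at 0 and 0.046 RPKM in replicates 1 and 2. The source of the gaps was not tested. Krt5 was at 16.04 and 0.148 RPKM in C57MG replicates 1 and 2, and Spink5, an epidermal protease inhibitor, at 5.042 and 0.095 RPKM. Nr1d1 and Dbp, both genes of the circadian clock, were also higher in replicate 1, with differences of -1.33 and -1.02.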
